A study of Mus musculus with 6 samples.

Results

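Hepatocytes take bile acids (BAs) up from sinusoidal blood through a small set of membrane carriers, and FXR binding at 5 of their genes was examined here. Members were the FXR peaks that the authors' annotation assigned to Slc10a1, Slco1b2, Slco1a1, Slco1a4 or Slco2b1. There were 20 such peaks of 20040 in control liver and 11 of 12495 in Bcl6-deleted liver, at 21 distinct sites. Each of the 5 genes had at least 2 control peaks, and 4 of the 5 had a peak in Bcl6-deleted liver.

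FXR is the nuclear receptor that senses BAs, and it binds DNA with RXR, typically at an inverted repeat of the hexamer AGGTCA with 1 base between the copies (IR1). Slc10a1 encodes NTCP, the sodium-dependent carrier of conjugated BAs. The Slco genes encode organic anion transporting polypeptides (OATPs), which work without sodium and also carry bilirubin conjugates, hormones and drugs. BCL6 is a transcriptional repressor of the zinc finger family, and its recognition sequence resembles that of STAT factors.

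All mice were C57BL/6 and carried floxed Bcl6 alleles. The control group, Bcl6fl/fl, is written WT here. The deleted group, Alb-cre with Bcl6 fl/fl, is Bcl6LKO in the study and LKO here. The albumin promoter directs Cre to hepatocytes, so other liver cells of LKO mice were not its target, and WT mice lack the transgene. The labels give neither age nor sex, and the study describes its control FXR track as male liver. For each genotype, 2 ChIP libraries of FXR were sequenced with 1 library of input chromatin, and nothing in the sources used here says how many livers entered a library. ChIP of whole liver shows neither the Bcl6 deletion nor the level of any transcript, and liver cell types could not be told apart. WT replicate 2 was shallow, with 2883717 tags against 19022618 to 22637613 in the other 3 ChIP libraries. Peaks were called on pooled libraries, so peak counts have no replicate spread.

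The sites that matched IR1 best are shown first, since they come closest to the element FXR is known to bind. An IR1 with up to 2 mismatches among the 12 bases scored lay within 100 bp of the peak centre at 6 sites, 4 of them at Slco1b2. Sequences are from GRCm38.p6, which has the coordinates of mm10, on the plus strand and 5′ to 3′, and capitals mark mismatches to AGGTCANTGACCT.
Slco2b1 -463, chr7:99696227-99696239: aggtcagtgacct
Slco1b2 -100, chr6:141629430-141629442: aggAcagtgacct
Slco1b2 +13418, chr6:141642931-141642943: aggAcaatgacct
Slco2b1 +17119, chr7:99678629-99678641: aggtcaatgaccG
Slco1b2 -18556, chr6:141610896-141610908: agCtcCctgacct
Slco1b2 +11349, chr6:141640801-141640813: TggtcCctgacct
Names give the distance in bp of the WT peak centre from the nearest annotated transcription start site (TSS), negative upstream.

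The Slco2b1 -463 site was an exact IR1, which 0.230% of all WT peaks held. The Slco1b2 promoter and +13418 sites carried the same substitution, T4A, counted from 1 at the 5′ end of the motif, and Slco2b1 +17119 carried T13G. In all, 6 of 20 WT member peaks (30%) had a match against 11.8% of all WT peaks, and 4 of 11 LKO member peaks (36.4%) against 16.2% of all LKO peaks. Windows 2 kb from the peaks had a match in 0.893% (WT) and 0.872% (LKO). No test was run on these shares, which rest on a few peaks in 2 genes. A single AGGTCA on either strand, which any exact IR1 also contains, lay in 10 of 20 WT and 6 of 11 LKO member peaks, against 40.3% and 41.3% of the lists. TTCNNNGAA, the palindrome of the STAT and BCL6 type, lay in 1 of 20 and 0 of 11, against 6.56% and 6.39%. These letters are a description of the windows and not shown sites of binding. Among 32851 RefSeq promoters of 300 bases, 1.14% held an IR1 match, 16.3% an AGGTCA and 8.3% a TTCNNNGAA. Of the 8 promoters listed for the 5 genes, 1 held an IR1 match, that of Slco1b2, 3 held an AGGTCA and 4 a TTCNNNGAA.

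Slc10a1 had the strongest member peak of both genotypes, and it lay upstream of the gene rather than at its promoter. Strength was ranked within each list by the mean of the 2 ChIP values. The intergenic peak 7334 bp upstream of its nearest TSS ranked at percentile 98.4 in WT and 95.2 in LKO. It is printed whole, because no IR1 match was found in it and the closest alignment, in capitals, had 5 mismatches.
Slc10a1 -7334, chr12:80975934-80976144: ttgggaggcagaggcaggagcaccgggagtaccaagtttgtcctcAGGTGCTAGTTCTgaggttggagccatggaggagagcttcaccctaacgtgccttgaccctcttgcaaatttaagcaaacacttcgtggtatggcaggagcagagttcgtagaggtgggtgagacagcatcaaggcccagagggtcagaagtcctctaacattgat
Its Peak Score, the pooled ChIP tags per 10000000, was 173.5 in WT and 73.1 in LKO, from 380 and 321 pooled tags. Input held an estimated 0.74 and 1.40 tags there. LKO scores at shared peaks had a median of 0.507 times the WT score, so scores of the separately scaled lists are not compared directly. Levels below are log2 tags after subtraction of each library's own median over the 9918 shared peaks. On that scale the -7334 peak stood at 2.13 and 2.59 in the WT libraries and at 1.93 and 2.04 in the LKO libraries. Both LKO values were below both WT values, by -0.37 (LKO minus WT, pooled SD 0.24, n = 2 libraries each). Its difference ranked at percentile 25.9 among the 1909 shared pairs in the strongest WT decile.

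The Slc10a1 promoter peak was found in WT only. It lay 84 bp upstream of the TSS at chr12:80968058-80968268, and the part upstream of the first exon of that transcript is shown, with the closest alignment to IR1, of 3 mismatches, in capitals.
Slc10a1 -84, chr12:80968080-80968268: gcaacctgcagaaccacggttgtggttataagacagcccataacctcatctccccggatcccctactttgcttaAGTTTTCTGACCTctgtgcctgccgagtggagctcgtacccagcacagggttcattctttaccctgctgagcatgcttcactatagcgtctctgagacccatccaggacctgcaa
It held 56 pooled tags (95% exact Poisson interval 42.3 to 72.7) at a score of 25.6 and stood at -0.71 and -1.17 in the WT libraries, below the median shared peak in both. Its rank was percentile 40.1 of the WT list. Of the 2301 WT peaks within 10% of its score, 48.8% had an LKO peak. The LKO table gives no value where no LKO peak was called, so FXR tags at this promoter in LKO liver were not measured here. The weakest LKO peak of the whole list held 39 pooled tags, at a score of 8.88.

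The remaining Slc10a1 peak, in intron 4 at +10666 (chr12:80957308-80957518), was shared. It stood at -0.19 and -0.36 in WT and at -1.17 and -0.57 in LKO, which gives -0.60 (pooled SD 0.31). Both Slc10a1 peaks that could be compared were thus lower in LKO relative to the median shared peak, without overlap between the libraries. One further WT peak inside the gene (chr12:80953888-80954098, score 11.4) was assigned to Srsf5, a splicing factor gene next to it, and is not counted.

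**Figure D1:**
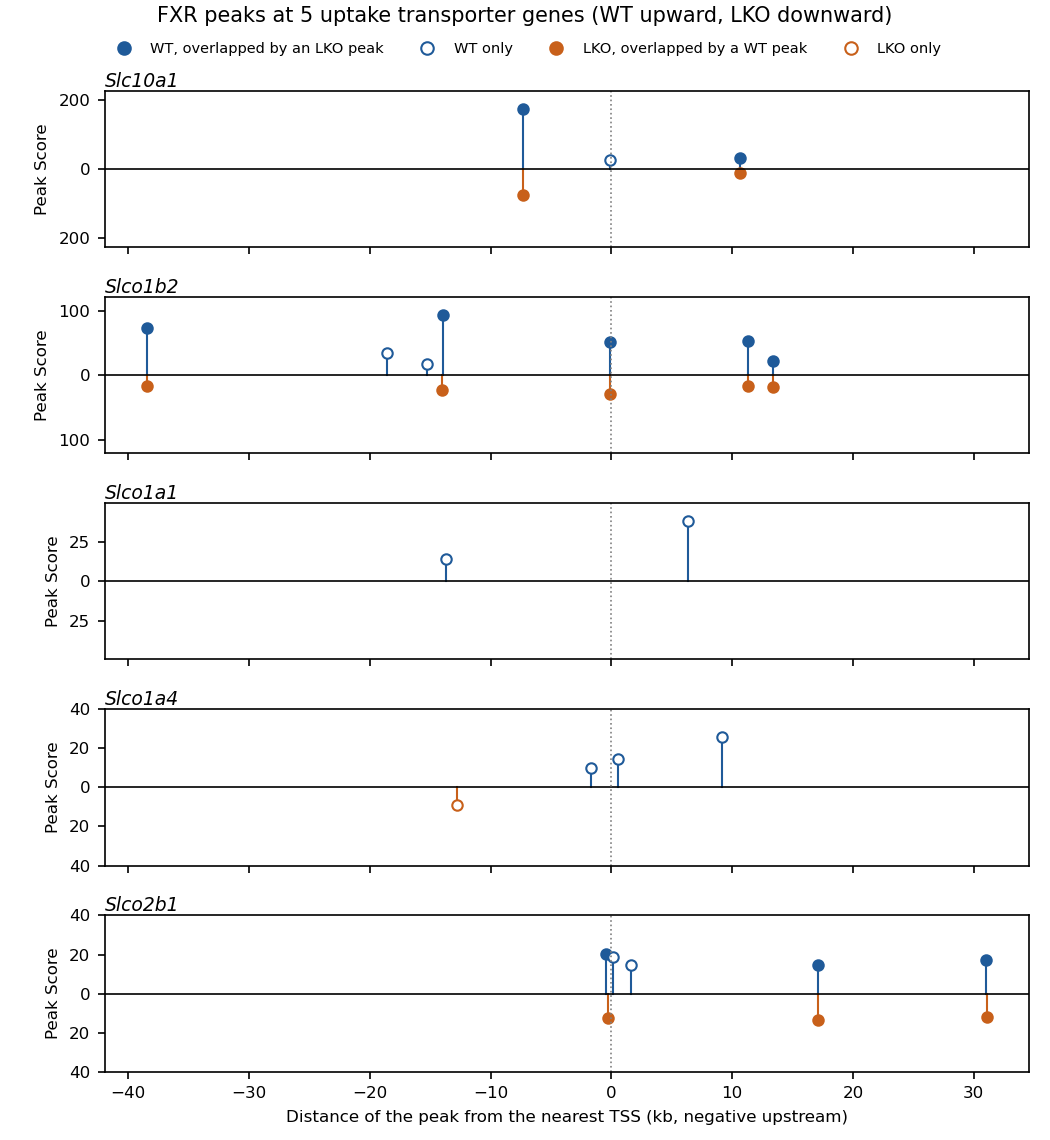
FXR peaks by distance from the nearest annotated TSS in kb, each gene on its own vertical scale. Peak Score (pooled tags per 10000000) points upward for WT and downward for LKO. Filled points overlap a peak of the other genotype, open points do not, and the tallest is Slc10a1 -7334 with 173.5 in WT and 73.1 in LKO.

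Overlap of member peaks followed that of the lists closely in WT. Of the 20 WT peaks, 10 were overlapped by an LKO peak (50%, 95% Wilson interval 29.9 to 70.1%), against 49.5% of all WT peaks. Of the 11 LKO peaks, 10 were overlapped by a WT peak (90.9%, 62.3 to 98.4%), against 79.4% of all LKO peaks. These intervals reflect the number of peaks counted, and mice were not resolved. The genes differed in their counts. Slc10a1 kept 2 of 3 WT peaks in LKO, Slco1b2 5 of 7, Slco2b1 3 of 5, and Slco1a1 and Slco1a4 kept none of 2 and 3. The 10 WT-only peaks ranked lower in their list, with a median percentile of 33.2 against 73.6 for the 10 shared peaks.

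Slco1b2, which encodes the main liver OATP of the 1B type in mice, had the most member peaks, 7 in WT and 5 in LKO. At least 7 peaks were assigned to 4.08% of the 9025 genes with a WT peak, and at least 5 to 5.25% of the 6877 genes with an LKO peak. The 5 shared peaks lay at -38434, -13973, -100, +11349 and +13418 bp, and the WT-only peaks at -18556 and -15275 bp. The promoter peak is shown without the exon bases, with its IR1 match in capitals.
Slco1b2 -100, chr6:141629313-141629451: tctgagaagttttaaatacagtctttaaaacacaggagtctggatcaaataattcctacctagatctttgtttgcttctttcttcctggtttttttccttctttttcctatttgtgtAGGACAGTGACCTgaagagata
The -13973 peak, the strongest of the gene in WT, is shown whole, with its closest alignment to IR1, an intact first half-site with 4 mismatches in the other, in capitals.
Slco1b2 -13973, chr6:141615440-141615650: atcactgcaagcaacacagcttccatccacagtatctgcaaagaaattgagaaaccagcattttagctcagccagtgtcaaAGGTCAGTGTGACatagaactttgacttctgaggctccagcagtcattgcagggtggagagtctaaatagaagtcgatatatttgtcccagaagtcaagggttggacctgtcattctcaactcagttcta

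Both shared upstream Slco1b2 peaks and 1 intronic peak stood lower in LKO, the other intronic peak stood higher, and the promoter peak overlapped between genotypes. At -13973 the relative levels were 1.25 and 1.51 in WT and 0.09 and 0.48 in LKO, which gives -1.09 for LKO minus WT (pooled SD 0.24). At -38434 they were 0.85 and 1.24 in WT and -0.50 and -0.02 in LKO, which gives -1.31 (pooled SD 0.31). These 2 upstream peaks ranked at percentiles 1.82 and 0.99 of the differences over all 9918 shared pairs, and at 3.67 and 2.25 among pairs in the same decile of WT strength. Scores gave like ranks, as the LKO to WT ratio was 0.252 at -13973 and 0.223 at -38434, at percentiles 2.04 and 1.24.

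At the Slco1b2 promoter the relative levels were 0.34 and 0.55 in WT and 0.53 and 0.75 in LKO. The libraries of the genotypes overlapped, and the difference of 0.19 compares with a pooled SD of 0.15. At +11349, in intron 3, levels were 0.43 and 0.68 in WT and -0.06 and -0.71 in LKO, all LKO values being lower. In the same intron at +13418 they were -0.69 and -1.39 in WT and -0.36 and 0.15 in LKO, all LKO values being higher. That difference of 0.93 ranked at percentile 85.4 among shared pairs in its decile of WT strength, whose median was 0.39. The LKO input was raised at the promoter peak and ranked at percentile 98.7 of LKO inputs. Its deposited log2 value, scaled for library depth, was 3.36 against 5.57 and 5.60 in the LKO ChIP libraries. Unscaled, these are an estimated 4.21 input tags and 59.6 and 64.6 ChIP tags, from libraries of 6935001, 21287263 and 22637613 tags. At the other 4 shared Slco1b2 peaks the LKO input was estimated at 0.38 to 0.41 tags. The part of that input signal in the promoter values was not tested.

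**Figure D2:**
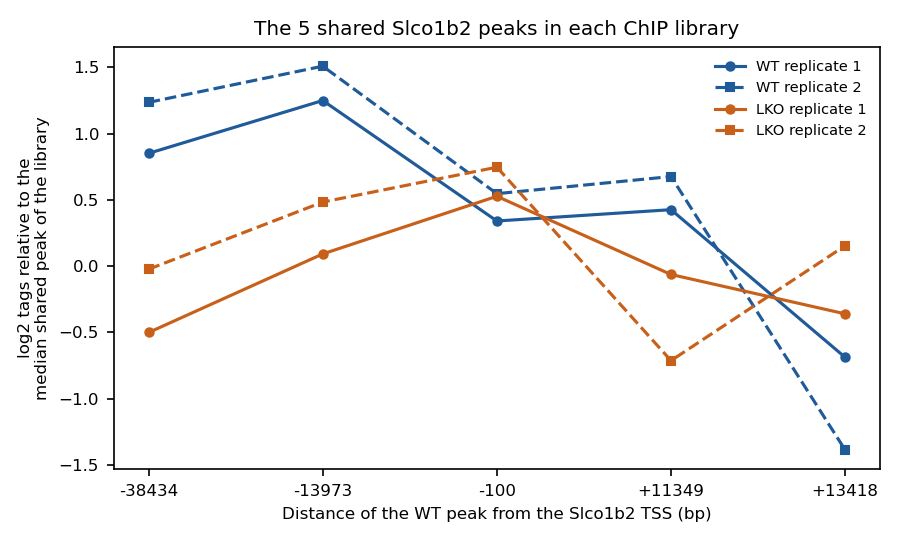
log2 tags relative to the median shared peak of the library at the 5 shared Slco1b2 peaks, ordered by distance from the TSS in bp, with 1 line per ChIP library. In both WT libraries the highest point is the peak at -13973, and in both LKO libraries it is the promoter peak at -100.

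The order of the Slco1b2 peaks within a library therefore differed between genotypes. This comparison needs no scaling between the tables, because both values come from the same library, although the log2 transform still shrinks low values within a table. The promoter peak stood below the -13973 peak by a log2 difference of -0.91 and -0.96 in the WT libraries, and above it by 0.44 and 0.26 in the LKO libraries. In pooled tags, the promoter took 112 of the 315 tags of both peaks in WT (35.6%, 95% Wilson interval 30.5 to 41.0%) and 127 of 230 in LKO (55.2%, 48.8 to 61.5%). These intervals cover the counting error of tags only, not variation between libraries or mice, so they do not test a genotype difference. With 2 libraries a genotype, the two-sided exact permutation test of the log2 difference gave p = 0.333, the smallest value it can give. The pair was picked after the values were seen, as the peak nearest to the TSS against the strongest in WT. The p-value is therefore no evidence of a difference. Of the 14 pairs of shared peaks within a member gene, 4 had opposite order in both WT and both LKO libraries, all at Slco1b2, which has 10 of the 14. Over all genes this held for 8.87% of 7681 such pairs. The peak pairs of a gene share peaks, so the 4 are not independent, and 3 of them contain the promoter peak.

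Slco2b1, which encodes an OATP of broad tissue distribution, had weak peaks only. Its 5 WT peaks ranked at percentile 36.2 or lower and its 3 LKO peaks at 27.1 or lower. The gene spans chr7:99657804-99711340 on the minus strand, with further annotated starts upstream of the -463 peak. The exact IR1 lay in that peak, at the promoter of an internal start, printed here with the motif in capitals.
Slco2b1 -463, chr7:99696167-99696377: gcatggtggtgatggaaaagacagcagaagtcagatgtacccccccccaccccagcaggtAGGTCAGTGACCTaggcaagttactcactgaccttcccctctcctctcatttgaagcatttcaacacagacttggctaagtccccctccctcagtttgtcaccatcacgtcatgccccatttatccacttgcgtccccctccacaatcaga
The LKO promoter peak was centred at -285 (chr7:99695992-99696196) and overlapped the WT peak by 30 bp, with the centres 178 bp apart. The median distance between centres of shared pairs was 17 bp, and 95% lay within 72 bp. The exact IR1 lay outside the LKO peak, whose closest alignment had 6 mismatches. The pair at +30975 was also offset, by 121 bp, with 87 bp of overlap. Under a reciprocal overlap of 50% neither pair counts as shared. The values of the 2 genotypes at these pairs thus come from partly different sequence.

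All 3 shared Slco2b1 peaks stood higher in LKO relative to the median shared peak, as other weak peaks did. At -463 the relative levels were -1.23 and -2.01 in WT and -0.84 and -0.73 in LKO. At +17119, in intron 7, they were -1.69 and -0.86 in WT and -0.62 and -0.73 in LKO. At +30975 they were -1.38 and -2.02 in WT and -0.85 and -1.15 in LKO. The differences were 0.83, 0.60 and 0.70. All 3 ranked between percentiles 32.7 and 50.1 among the shared pairs in their decile of WT strength, whose medians were 0.88, 0.60 and 0.88. A weak WT peak has an LKO value only if an LKO peak was called over it. The WT-only peaks, in the 5′ UTR at +116 and in intron 1 at +1588, held 41 and 32 pooled tags, and the first had deposited log2 values of 3.95 and 4.54 in the WT libraries.

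**Figure D3:**
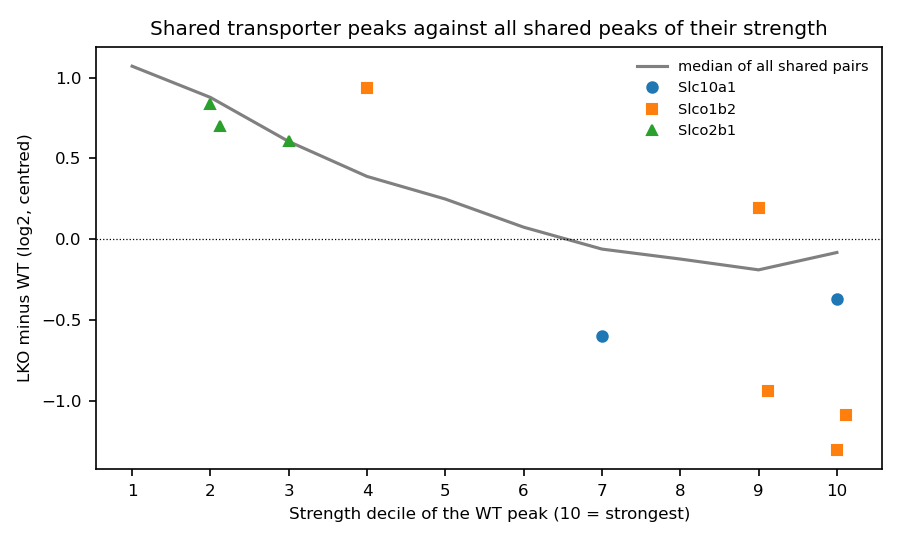
LKO minus WT level (log2, centred in each library) of the 10 shared member peaks against the strength decile of the WT peak, with points of the same decile set slightly apart; the grey line is the median of all 9918 shared pairs per decile. Slco2b1 points lie near the line, and the Slco1b2 peaks at -38434 and -13973 lie farthest below it at -1.31 and -1.09.

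Over the 10 shared member peaks, both LKO values lay below both WT values at 5, against 25.2% of all shared pairs, and above them at 4, against 29.8%. The LKO and WT libraries overlapped at 1, the Slco1b2 promoter. The median difference was -0.09, against 0.03 over all shared pairs, and differences ran from -1.31 to 0.93. Single libraries set the sign of that median, which was 0.078 without WT replicate 2 and 0.0019 without LKO replicate 1, and a scale set by library totals gave -1.24. The 5 lower peaks were at Slc10a1 (2) and Slco1b2 (3), and the 4 higher at Slco2b1 (3) and Slco1b2 (1). No test between genotypes was run on these levels, since the tables were normalized separately.

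**Figure D4:**
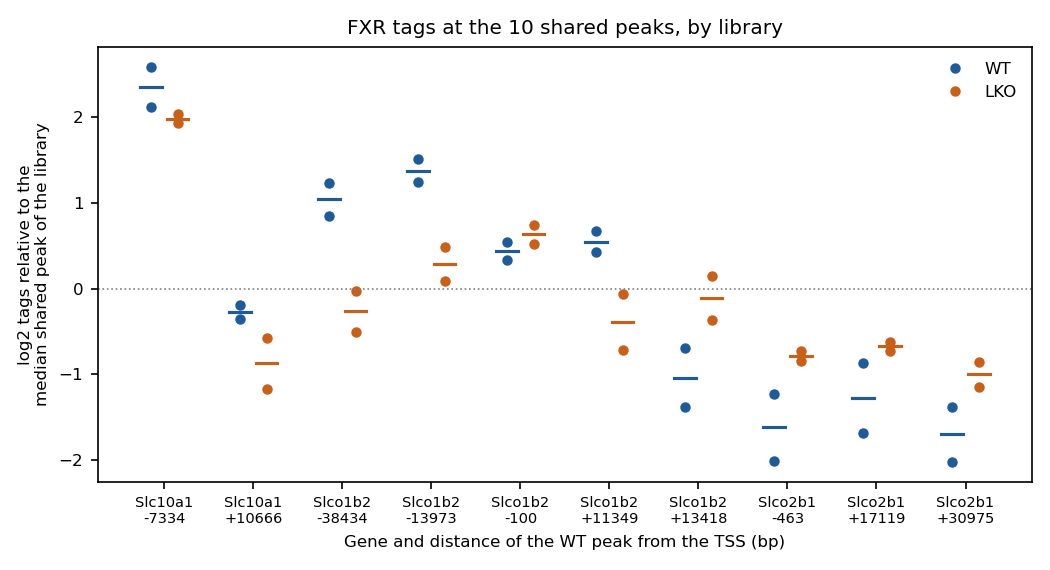
log2 tags relative to the median shared peak of the library at the 10 shared peaks, with 1 point per ChIP library and a bar at the mean of 2. WT and LKO points overlap only at Slco1b2 -100.

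Slco1a1 and Slco1a4, neighbouring OATP genes in the chromosome 6 cluster that also holds Slco1b2, shared no peak between the genotypes. The strongest was Slco1a1 +6358 in intron 2 (chr6:141940499-141940709), with 83 pooled tags and relative levels of 0.02 and -0.20 in WT. It ranked at percentile 70.2, and of the 1654 WT peaks within 10% of its score 72.9% had an LKO peak. Input there held an estimated 1.53 tags. The Slco1a4 peak at +9153, in intron 2, held 57 pooled tags at percentile 51.1 and stood at -0.55 and -0.75, and the one at -1685 held 22, the fewest of any member. The upstream Slco1a1 peak, at -13719, held 31 pooled tags and stood at -1.81 and -0.57. Of the WT peaks within 10% of their scores, fewer had an LKO peak than at +6358. The shares were 50.3% for Slco1a4 +9153, 6.73% for Slco1a4 -1685 and 14.9% for Slco1a1 -13719. The only LKO peak, Slco1a4 -12785 (chr6:141868903-141869107), held 40 pooled tags against 39 at the weakest peak of the LKO list, and stood at -1.05 and -1.23. It ranked at percentile 5.23.

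No peak of either genotype lay in the gene bodies of Slco1c1, Slco1a5, Slco1a6, Gm5724 or Gm6614, the other genes of that chromosome 6 interval. Among 16 other Slco and Slc10 genes, 12 had no peak in either list. The others held 8 WT peaks, 4 of them shared, and Slco2a1, the prostaglandin carrier, had the most with 4. Canalicular exporters held 19 with 13 shared, led by the phospholipid floppase gene Abcb4 at 185.8. Basolateral efflux genes held 11 with 4 shared, led by the OSTβ gene Slc51b at 213.6. The Slc10a1 -7334 peak, at 173.5, was below these and below the peak of Abcb11, the Bsep gene, at 177.6. It was also below the strongest peak of Slc22a7, a hepatocyte uptake carrier of organic anions, at 179.4. No test was run between lists.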

How the data were processed

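FXR ChIP-seq libraries of WT and LKO liver (2 ChIP and 1 input each) were analysed from the deposited peak tables, 1 per genotype. Samples were grouped by their labels. Per the labels and the study's methods, the authors crosslinked liver with DSG and formaldehyde, used antibody E4B8P, sequenced single-end reads, kept unique alignments to mm10 (Bowtie 1.2 in the submitters' processing notes) and made HOMER (4.10) tag directories keeping at most 1 tag at a position. In HOMER's replicate mode, as the file headers record, the authors pooled both ChIP libraries, called factor-style peaks over input and filtered them with DESeq2 after scaling to library totals. The deposited values per library were taken as regularized log2 tags of the 3 libraries of 1 table, a transform that shrinks low values towards each other. Peak Score was deposited as a signal, in pooled tags per 10000000. Multiplied by the pooled total (21906335 WT, 43924876 LKO) it gave whole tags within 0.05 at 100% of the 473 WT and 1231 LKO peaks scored under 10. The authors' fold change and p-value columns compare ChIP with input and were not used.

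Library totals were 19022618 and 2883717 (WT ChIP), 21287263 and 22637613 (LKO ChIP), 6964271 (WT input) and 6935001 (LKO input). The median peak held an estimated 40.1, 9.00, 36.7 and 34.1 tags in the ChIP libraries, in that order. Estimated tags are 2 raised to the log2 value, times the library total over the mean total of the table.

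Peaks overlapping by at least 1 bp were called shared. For levels set across the separately normalized tables, each library was centred on its median over shared peaks, and no test was run. Shares carry 95% Wilson and tag counts 95% exact Poisson intervals, which cover counting error only. IR1, AGGTCA and TTCNNNGAA were sought on both strands within 100 bp of peak centres in RefSeq GRCm38.p6. By the rule for named peaks, values per library were given for all Slc10a1 peaks and for the strongest and TSS-nearest peak of the other genes, except where an item is withheld for evaluation and not reported here. Further peaks were named after their values were seen. Members and lists were chosen with earlier results of these data known. On simulated data 1500 of 1500 planted overlaps and 2000 of 2000 planted IR1 matches were recovered, and 13 of 2000 random windows were called. Versions were Python 3.11.15, matplotlib 3.10.9, scipy 1.17.1, pandas 2.3.3 and numpy 2.4.6.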

Additional observations from a re-analysis of the deposited data

Results flagged for a closer look

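At Slco1b2, 4 pairs of peaks stood in one order in both WT libraries and in the opposite order in both LKO libraries. The difference between genotypes was not tested beyond the exact permutation test of the first pair given above. The promoter peak at -100 minus the -13973 peak averaged -0.94 in WT and 0.35 in LKO, a shift of 1.28 (log2, LKO minus WT). The -38434 peak minus the promoter peak averaged 0.60 in WT and -0.90 in LKO, a shift of -1.50. The +11349 peak minus the promoter peak averaged 0.11 and -1.03, a shift of -1.13. The -38434 peak minus the +13418 peak averaged 2.08 and -0.16, a shift of -2.24. The first 3 of these contain the promoter peak, whose LKO input was estimated at 4.21 tags, and the part of that input in the shift was not tested. The last does not contain it, and both its peaks had an estimated 0.39 input tags in LKO. The +13418 peak was weak in WT, and shared peaks of its strength decile stood higher in LKO by a median log2 difference of 0.39. The part of that rise in the shift was not tested.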

How the results depend on the processing

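Levels were not tested between genotypes, so the replicate number could serve as a block only for the Slco1b2 promoter contrast. With that replicate block the shift was 1.34 and 1.23 in the 2 pairs (mean 1.28), and the two-sided exact permutation of signs gave p = 0.5, the smallest that 2 pairs allow. The labels tie nothing but a number to the pairs. Requiring at least median strength left 9 WT and 4 LKO member peaks, with 3 shared on either side, and requiring 10 estimated tags in both ChIP libraries left 7 WT peaks, all of the loss falling on the shallow WT replicate 2 (lowest member estimate 3.42 tags). With lists of the same length, 6 of 10 WT and 6 of 11 LKO member peaks were shared. The share of all peaks was not computed for the lists cut by strength or length. Whether these changes concern the members or the cut lists as a whole was not tested. The median strength percentile was 38.1 in WT and 41.2 in LKO, 48.5 and 46.9 by Peak Score, and 43.1 to 49.2 and 31.6 to 34.4 with 1 ChIP replicate left out. The median difference of shared member peaks (-0.09) was -0.16 with mean centring, -0.42 as deposited and -1.24 with each table divided by its mean library total, and ran from -0.21 to 0.078 without single replicates, above 0 without WT replicate 2 (0.078) and without LKO replicate 1 (0.0019), so its sign is not settled. At most 3 mismatches gave 10 WT member peaks with an IR1 match, against 36% of the WT list, and 5 of 11 LKO member peaks, against 43.6% of the LKO list. Of alternatives chosen after seeing the data, pooled tags gave a Slco1b2 promoter shift of 1.16 in place of 1.28, while leaving out single replicates moved it by less than its spread. In all, 20 of 42 alternatives left a result within 1.5 times, or within the replicate spread, of its value. The 20 include the promoter shifts without single replicates, whose outcome was fixed in advance.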

Other observations

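Median GC content was 43.4% over the WT member peaks and 42.4% over the LKO member peaks, against 49.8% and 50.7% over all peaks. WT member peaks ran from 33.6 to 57.3%, and the lowest values were at the chromosome 6 genes. At Slc10a1 the WT peaks had 53.1, 50.7 and 43.1%, and at Slco2b1 they ran from 43.6 to 57.3%, so low GC was not a trait of all members. Within 1 kb of a TSS lay 5 of 20 WT and 2 of 11 LKO member peaks, against 16.7% and 16.6% of the lists. None of these was tested.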
